A study of Mus musculus with 6 samples.

Results

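The collagen genes of the mouse were followed in kidney cortex with and without the receptor for the complement fragment C3a. They were the genes whose symbol on the array reads Col, a number, the letter a and a number, which gave 44 of the 36944 gene names and 91 of the 56605 distinct probes. All 44 collagen genes of the RefSeq table were represented. They were sorted into 11 fibrillar collagens, the 6 chains of the basement membrane collagen type IV, and 27 other collagens. The groups were 3 C3aR-/- controls and 3 WT controls, all male, of C57BL/6 strain per the labels. Both groups were the control arm of a diabetes study, so every animal ate normal chow with 10% of calories from fat from 8 weeks of age. After 4 weeks on this diet the animals were injected on 3 days with vehicle in place of streptozotocin. Tissue was taken 20 weeks after this induction step by the study's calendar. The labels do not describe how the receptor gene was inactivated. They also leave unsaid whether the 6 samples were 6 animals, and the p-values then speak only of the variation among these 6 RNA samples.

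Collagens are trimers of chains that wind around each other through a long Gly-X-Y repeat. Fibrillar collagens form the banded fibres of the interstitium, which fibroblasts and pericytes deposit, and type IV collagen forms the sheet under epithelium and endothelium. In the glomerulus, podocytes make the α3α4α5 network of type IV, while the α1α1α2 network is common to basement membranes in general. Chains pass through hydroxylation, trimer folding and secretion, propeptide removal and cross-linking before they join the matrix.

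Levels are log2 intensities after subtraction of the array's own 75th percentile, so 0 is the 75th percentile of the array. Changes are C3aR-/- minus WT with limma's standard error (SE), and adjusted p-values come from limma with Benjamini-Hochberg adjustment over 20490 genes at a threshold of 0.05. Levels of different genes come from different probes and are not set against each other. Sums over marker lists lean on their brightest probes and are not counts of cells. On each array 56.5% to 59.3% of transcript spots exceeded background. C3aR-/- replicate 1 had 145 non-uniform spots, against 2 to 8 on each of the others. The 3 C3aR-/- arrays lay on one slide and the 3 WT arrays on another, so a difference between genotypes and one between slides cannot be told apart. C3ar1, the targeted gene (mm9, chr6:122798222-122798281), was measured at -5.71 ± 0.30 in C3aR-/- and -5.60 ± 0.57 in WT cortex (SD, n = 3 each). Its probe exceeded background on 0 C3aR-/- arrays and 1 WT array, and so cannot check the labels. Markers were read beside the label of cortex. All 6 proximal tubule markers exceeded background on all arrays, and the phosphate transporter gene Slc34a1 lay at 7.59, 7.60 and 7.58 in C3aR-/- cortex and 7.54, 7.50 and 7.45 in WT cortex. All 6 markers of the loop, distal tubule and collecting duct exceeded it too. These lists therefore cannot tell cortex from other parts of the kidney.

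The Gly-X-Y repeat is visible in the probes themselves, because glycine codons begin with GG and recur every 9 bases of the coding strand. A run of at least 5 such codons (GGNNNNNNN repeated) was found in 6 of 91 collagen probes (6.59%) and in 10 of the other 56514 probes (0.0177%). On the opposite strand the counts were 0 and 6. The 6 collagen probes are printed 5′ to 3′ as spotted, with the GG of each codon in the run in capitals, because they are the stretches of collagen sequence that chains of this family share most plainly.
Col11a2 (mm9, chr17:34189287-34189453): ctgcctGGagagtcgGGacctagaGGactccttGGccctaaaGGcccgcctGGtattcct
Col15a1 (mm9, chr4:47283786-47283845): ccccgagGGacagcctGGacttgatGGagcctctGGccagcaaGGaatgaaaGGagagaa
Col16a1 (mm9, chr4:129756457-129756516): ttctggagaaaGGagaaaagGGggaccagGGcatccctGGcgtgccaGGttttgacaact
Col22a1 (mm9, chr15:71767749-71768433): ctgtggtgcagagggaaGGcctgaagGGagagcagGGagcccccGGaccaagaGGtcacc
Col5a3 (mm9, chr9:20590066-20590795): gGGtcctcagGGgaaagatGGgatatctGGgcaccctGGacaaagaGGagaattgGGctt
Col6a3 (mm9, chr1:92689602-92690594): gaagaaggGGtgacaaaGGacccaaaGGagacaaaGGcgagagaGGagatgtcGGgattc
Col11a2, Col22a1, Col5a3 and Col6a3 are represented here by probes that span more than 60 genomic bases and so cross an exon junction. Of these 6 probes, those of Col11a2 and Col6a3 passed the filter on dim signals, and of these it was the Col11a2 probe that stood for its gene, with 3 C3aR-/- arrays and 1 WT array above background. Whether such a probe also binds other collagen transcripts was not tested.

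Of the 44 genes, 30 had a probe that exceeded background on every array of one genotype or the other and were tested, and 27 of them exceeded background on all 6 arrays. Col20a1, Col11a2 and Col24a1 entered through the C3aR-/- arrays alone. The other 14 genes were too dim to test. They were the cartilage chains Col2a1, Col11a1, Col9a1, Col9a3 and Col10a1, with Col6a4, Col6a5, Col6a6, Col8a2, Col15a1, Col22a1, Col23a1, Col25a1 and Col28a1. Col6a5 exceeded background on 2 C3aR-/- arrays and Col15a1 and Col23a1 on 1 each, against 0 WT arrays for all of these. Detection also differed by the position of a probe in collagen genes with a probe that passed, and the cause was not tested. In 16 of the 19 genes with several probes and at least 1 that passed, the probe nearest the 3′ end passed, while 13 of the other 32 probes of those genes did.

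Between genotypes, 4 collagen genes rose in C3aR-/- cortex (Col8a1, Col4a2, Col18a1 and Col20a1), 1 fell (Col19a1) and 25 did not pass. That is 5 of 30, where 14.3% of all genes tested were called, 7.05% as higher and 7.26% as lower. With 1 array left out the number of calls was 3, 1 and 1 without C3aR-/- replicates 1 to 3 and 0, 1 and 3 without WT replicates 1 to 3. At an unadjusted p under 0.05, 7 collagens were higher and 2 lower, where 18.1% of all genes tested were higher and 15.3% lower. Among the 27 genes above background on all 6 arrays, 3 rose and 1 fell, where 13.9% of such genes were called. The genotypes did not overlap in 10 of 30 collagens, where 41.3% of all genes tested had no overlap. The median change was 0.09 over the 30 collagens and 0.02 over all genes tested. The calls lay in the type IV and other collagens, at 1 of 6 and 4 of 15, and 0 of the 9 fibrillar collagens tested passed. Among those above background on all 6 arrays, which leaves out Col20a1, 2 of 14 other collagens rose and 1 fell. Type IV stayed at 1 of 6, and 0 of 7 fibrillar collagens passed.

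**Figure D1:**
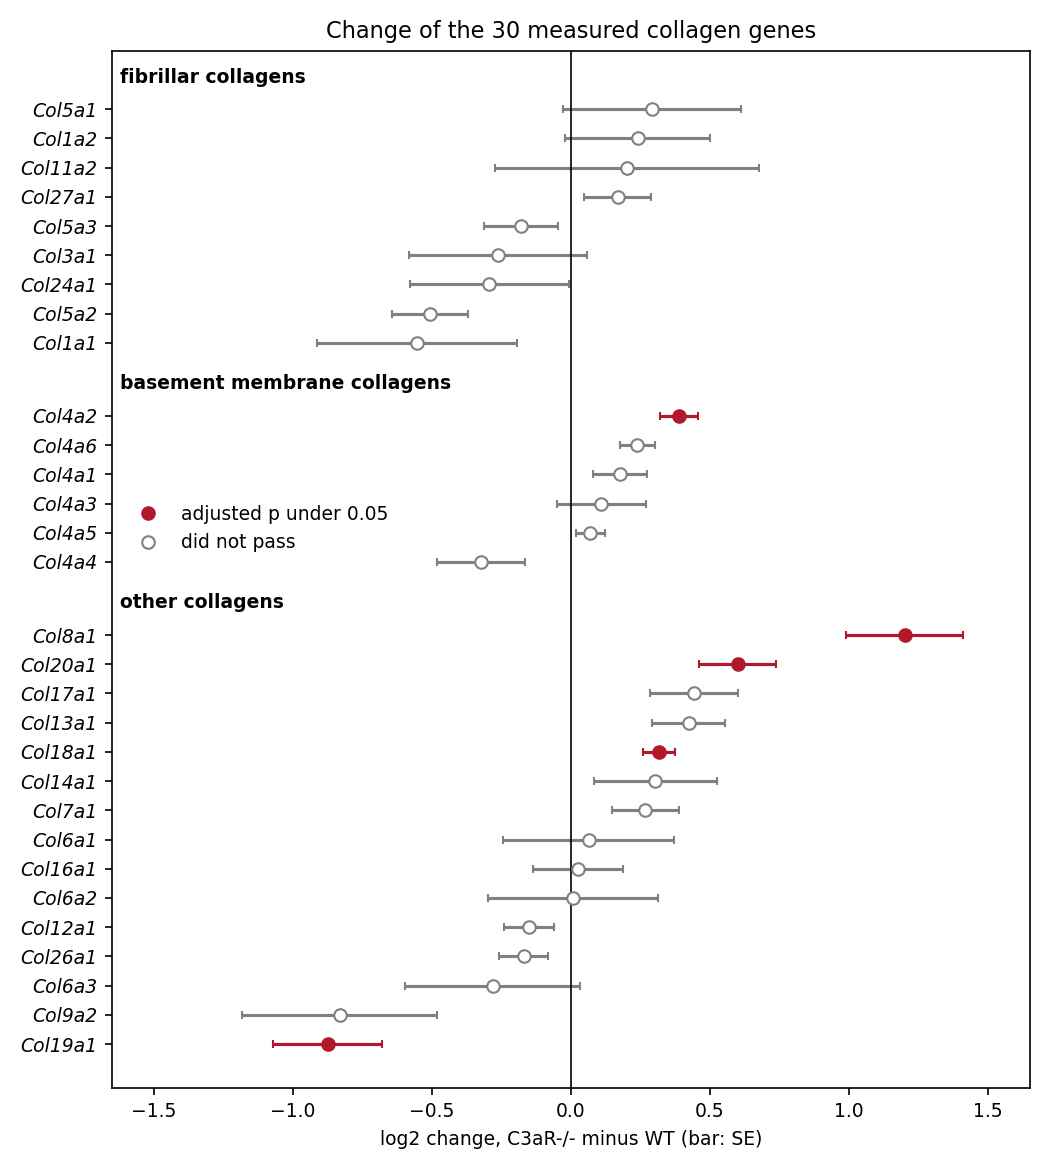
The horizontal axis gives the log2 change, C3aR-/- minus WT, of each of the 30 tested collagen genes (point) with its SE (bar), grouped by class; filled red points passed the adjusted threshold of 0.05. Col8a1 lies farthest to the right at 1.20 and Col19a1 farthest to the left at -0.87, and the chains of types I, III and VI are among those with wide bars.

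Col8a1 encodes a chain of the short-chain collagen type VIII, which forms hexagonal lattices and is known from the Descemet membrane and vessel walls. Its level was 1.67, 0.92 and 1.57 in C3aR-/- replicates 1 to 3, against 0.35, 0.05 and 0.16 in WT replicates 1 to 3 (mm9, chr16:57627033-57627092). All C3aR-/- arrays lay above all WT arrays, with C3aR-/- replicate 2 nearest to them. It rose 2.30-fold (log2 change 1.20, SE 0.21, adjusted p = 0.0225). Over 16 alternative settings the change was 1.03 to 1.43 and the adjusted p 0.00755 to 0.0734. It missed the threshold without C3aR-/- replicate 1 (0.0501) or 3 (0.0721), and without WT replicate 1 (0.0557), 2 (0.0734) or 3 (0.0602). In bulk cortex, more cells that make a transcript and more of it per cell cannot be told apart. The second chain gene of type VIII, Col8a2, was too dim to test.

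Col4a2 encodes the α2 chain of the general type IV network. It lay at 1.51, 1.70 and 1.57 in C3aR-/- cortex and at 1.22, 1.17 and 1.23 in WT cortex (mm9, chr8:11448840-11448899). The genotypes were clearly apart and the WT arrays nearly alike. It rose 1.31-fold (log2 change 0.39, SE 0.07, adjusted p = 0.0236). Its adjusted p was 0.0111 to 0.0768 over 16 alternatives, and it missed the threshold without C3aR-/- replicate 2 (0.0581) or 3 (0.0731) and without WT replicate 1 (0.0709), 2 (0.0726) or 3 (0.0552). Col4a1, the gene of its partner chain, lay at 2.19, 2.53 and 2.41 in C3aR-/- cortex and 2.14, 2.22 and 2.23 in WT cortex (mm9, chr8:11199009-11199068). C3aR-/- replicate 1 fell among the WT arrays. The change of 0.18 (SE 0.10) did not pass (adjusted p = 0.257), and its 95% interval of -0.06 to 0.41 holds the change of Col4a2.

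Col4a1 and Col4a2 lie head to head on chromosome 8 and are transcribed away from each other out of one short region. The RefSeq promoter windows of both genes (300 bases around the annotated start) are printed on their own strands. The capitals mark the 78 bases that the windows share, one being the reverse complement of the other.
Col4a1 promoter (GRCm38.p6, chr8:11312777-11313076, minus strand): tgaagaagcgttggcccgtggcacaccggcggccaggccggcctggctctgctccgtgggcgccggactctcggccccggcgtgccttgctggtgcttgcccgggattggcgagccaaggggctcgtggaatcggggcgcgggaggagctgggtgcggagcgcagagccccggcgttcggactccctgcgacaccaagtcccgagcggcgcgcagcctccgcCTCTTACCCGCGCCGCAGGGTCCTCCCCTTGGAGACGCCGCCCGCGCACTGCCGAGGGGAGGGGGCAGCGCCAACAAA
Col4a2 promoter (GRCm38.p6, chr8:11312555-11312854, plus strand): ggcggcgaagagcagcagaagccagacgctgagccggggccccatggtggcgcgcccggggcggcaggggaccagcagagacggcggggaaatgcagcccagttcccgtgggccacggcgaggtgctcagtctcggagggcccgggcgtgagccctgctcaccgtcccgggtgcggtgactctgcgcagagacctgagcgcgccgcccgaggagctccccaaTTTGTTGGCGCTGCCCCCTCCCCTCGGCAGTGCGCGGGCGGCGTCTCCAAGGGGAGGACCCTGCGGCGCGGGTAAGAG
Both windows are GC-rich, at 74% and 73.7% against a median of 52.7% over all RefSeq promoter windows. Searched on both strands, TATAAA was in neither, and it is in 13.6% of 32851 windows. CCAAT and GGGCGG were in both windows, and they are in 37.4% and 35.7% of all windows. Over 38 windows of 35 collagen genes the shares were 13.2% for TATAAA, 34.2% for CCAAT and 60.5% for GGGCGG. These matches describe the letters of the windows and are not measured binding sites.

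The other type IV pairs are also head to head. Col4a3, for the α3 chain, lay at 0.48, -0.11 and 0.09 in C3aR-/- cortex and 0.16, 0.04 and -0.06 in WT cortex, with the genotypes overlapping (log2 change 0.11, SE 0.16). Its change was -0.05 without C3aR-/- replicate 1. Col4a4, for the α4 chain, lay at 2.74, 2.22 and 2.24 in C3aR-/- cortex and 2.77, 2.82 and 2.59 in WT cortex. C3aR-/- replicate 1 again fell among the WT arrays, as the highest of its genotype for both genes. The change of -0.32 (SE 0.16, adjusted p = 0.211) passed without C3aR-/- replicate 1 (-0.49, adjusted p = 0.0433, in a range of 0.0433 to 0.916 over 16 alternatives). A second probe of Col4a4 gave a change of 0.02, so its direction depends on the probe.

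Col4a5, for the α5 chain that is mutated in most Alport families, had the smallest spread within genotypes of the 30 tested collagens. It lay at 0.38, 0.34 and 0.36 in C3aR-/- cortex and 0.30, 0.28 and 0.29 in WT cortex. The genotypes did not overlap, yet the change of 0.07 (SE 0.05) did not pass (adjusted p = 0.398), and its 95% interval was -0.06 to 0.20. Its second probe gave -0.18. Col4a6, for the α6 chain found in Bowman's capsule and some tubular basement membranes, lay at -3.19, -3.07 and -3.22 in C3aR-/- cortex and -3.43, -3.40 and -3.37 in WT cortex. The genotypes did not overlap, and the change of 0.24 (SE 0.06) missed the threshold at an adjusted p of 0.0581. It passed with the probe of smallest SD for each gene (adjusted p = 0.0475) and with array weights (adjusted p = 0.0439), while another background correction (normexp) gave 0.09 (adjusted p = 0.345, the highest of 16 alternatives). The median change of the 6 type IV genes was 0.14, and 5 of 6 were positive.

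**Figure D2:**
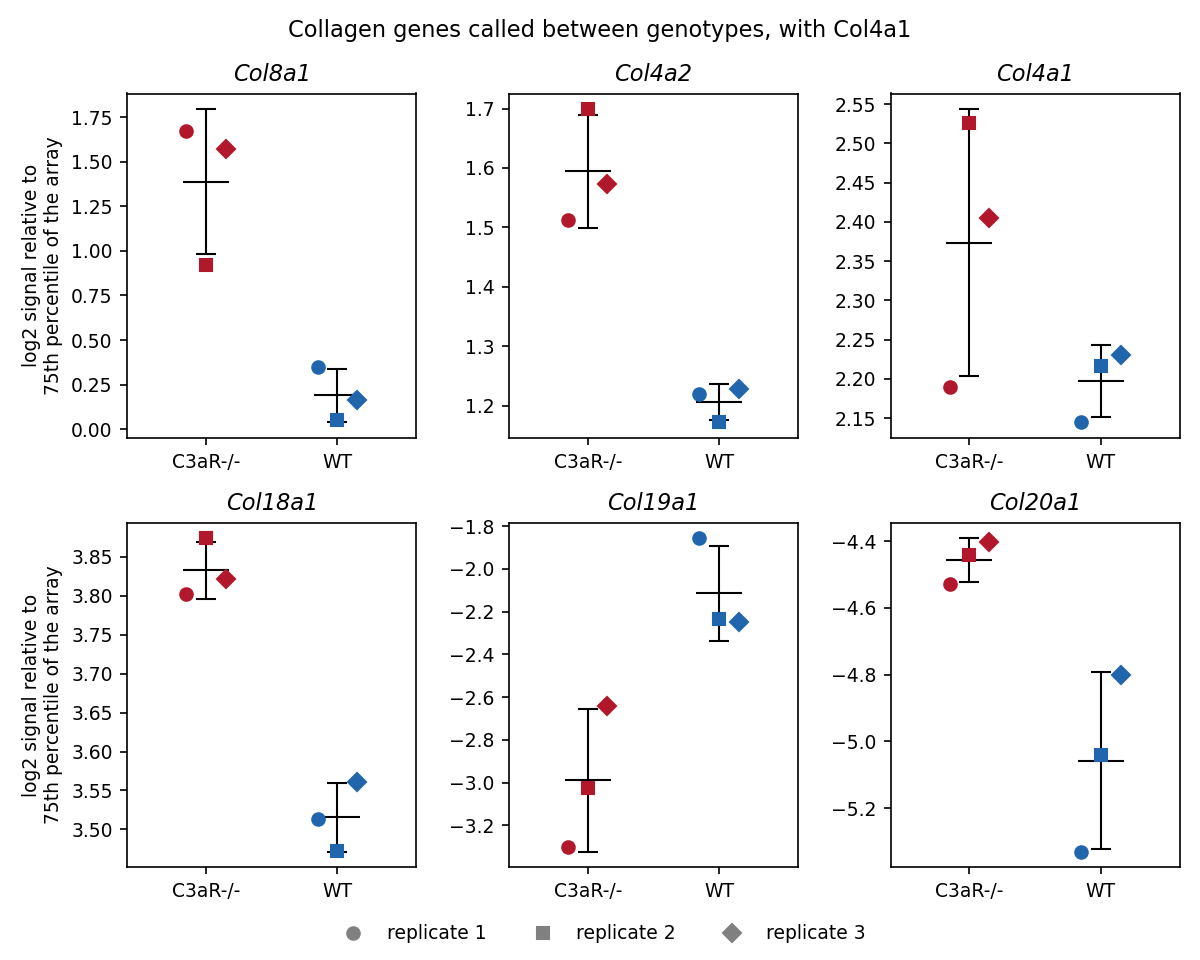
The vertical axes give log2 intensity relative to the array's 75th percentile, with C3aR-/- left and WT right in each panel; points are arrays shaped by replicate number, and lines and whiskers are the mean and SD of 3. The axes differ in range between panels, and the genotypes are apart in every panel but that of Col4a1, where C3aR-/- replicate 1 sits at the WT level.

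Col18a1 encodes type XVIII, a basement membrane collagen that carries heparan sulfate and whose C-terminal fragment is endostatin. It lay at 3.80, 3.87 and 3.82 in C3aR-/- cortex and 3.51, 3.47 and 3.56 in WT cortex (mm9, chr10:76515820-76515879). The arrays of each genotype were close together and the genotypes did not overlap. It rose 1.25-fold (log2 change 0.32, SE 0.06, adjusted p = 0.0245). Its adjusted p was 0.0141 to 0.0835 over 16 alternatives, and it missed the threshold without C3aR-/- replicate 2 (0.072) or 3 (0.0789) and without WT replicate 1 (0.0776) or 2 (0.0721). The related Col15a1 was too dim to test, at -5.79, -4.15 and -5.92 in C3aR-/- cortex and -5.36, -5.78 and -5.30 in WT cortex, and exceeded background on C3aR-/- replicate 2 alone.

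Col19a1 encodes type XIX, a collagen of the group that associates with fibrils through interrupted helices (FACIT) and is found near basement membranes. It lay at -3.30, -3.03 and -2.64 in C3aR-/- cortex and -1.86, -2.23 and -2.25 in WT cortex (mm9, chr1:24271315-24271374). All C3aR-/- arrays lay below all WT arrays. The gene fell by 0.87 on the log2 scale (SE 0.20, adjusted p = 0.038), so that WT cortex had 1.83-fold more. Its adjusted p was 0.016 to 0.0995 over 16 alternatives, and it missed the threshold without C3aR-/- replicate 1 (0.0727) or 2 (0.0976) and without WT replicate 1 (0.0968), 2 (0.0874) or 3 (0.074). The probe nearer the 3′ end exceeded background on no array, at -7.41, -7.68 and -7.53 in C3aR-/- cortex and -4.95, -5.37 and -5.72 in WT cortex, which gives no fold. Col20a1, another FACIT collagen gene, lay near background at -4.53, -4.44 and -4.40 in C3aR-/- cortex and -5.33, -5.04 and -4.80 in WT cortex (mm9, chr2:180752070-180752129). It rose 1.52-fold (log2 change 0.60, SE 0.14, adjusted p = 0.0411), but 1 of its WT arrays did not exceed background and it passed the filter on its C3aR-/- arrays, where it is higher. With normexp the change was 0.12 (adjusted p = 0.312, in a range of 0.0192 to 0.312 over 15 alternatives). With 1 array left out it passed without WT replicate 3, and missed the threshold without C3aR-/- replicate 1 (0.0774), 2 (0.102) or 3 (0.117) or WT replicate 1 (0.0708) or 2 (0.104).

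The fibrillar collagens that make up interstitial fibres were measured and did not pass. Col1a1, the α1 chain of type I, lay at -0.77, -0.16 and -1.18 in C3aR-/- cortex and -0.36, -0.57 and 0.48 in WT cortex, with wide overlap. The change was -0.55 (SE 0.36, adjusted p = 0.325, 95% interval -1.43 to 0.32), and the other measured probes gave -0.22 and -0.16. With 1 array left out the change of the main probe ran from -0.82 to -0.24. Leaving out WT replicate 3 gave -0.24, and leaving out C3aR-/- replicate 3 gave -0.32. Col1a2, the α2 chain of the same trimer, lay at 2.13, 2.62 and 2.02 in C3aR-/- cortex and 1.78, 1.75 and 2.52 in WT cortex (log2 change 0.24, SE 0.26, 95% interval -0.40 to 0.88), and its second probe gave -0.01. Its change ranged from 0.06 without C3aR-/- replicate 2 to 0.49 without WT replicate 3, and was 0.12 and 0.11 without WT replicates 1 and 2. Neither change passed, and the arrays of the genotypes overlapped for both chains. Col3a1, the chain of type III, lay at -0.47, 0.23 and -0.45 in C3aR-/- cortex and -0.24, -0.32 and 0.66 in WT cortex (log2 change -0.26, SE 0.32), and its change was 0.05 without WT replicate 3.

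Type V collagen sits inside type I fibrils and limits their diameter. Its main chain Col5a1 lay at -1.37, -1.12 and -1.39 in C3aR-/- cortex and -2.03, -1.90 and -0.83 in WT cortex. WT replicate 3 was the highest of all arrays and the other WT arrays the lowest. The change of 0.29 (SE 0.32, adjusted p = 0.559) was 0.67 and passed without WT replicate 3 (adjusted p = 0.0405, in a range of 0.0405 to 0.904 over 16 alternatives). Col5a2 lay at -3.63, -3.75 and -4.05 in C3aR-/- cortex and -3.14, -3.31 and -3.46 in WT cortex. It was the one fibrillar gene without overlap, and its change of -0.51 (SE 0.14) missed the threshold at an adjusted p of 0.0593. It passed with quantile normalisation (adjusted p = 0.0497) and with array weights (adjusted p = 0.0267), in a range of 0.0267 to 0.146 over 16 alternatives. Col5a3 lay at -3.0, -2.59 and -2.97 in C3aR-/- cortex and -2.69, -2.80 and -2.53 in WT cortex (log2 change -0.18, SE 0.13).

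The other fibrillar genes were Col27a1, Col24a1 and Col11a2, minor fibrillar chains known mainly from cartilage and bone. Their changes were 0.17, -0.29 and 0.20 (adjusted p = 0.368, 0.507 and 0.79). The probes of Col27a1 shared a sign and differed in size. A probe farther from the 3′ end lay at -3.19, -2.52 and -2.66 in C3aR-/- cortex and -3.84, -3.86 and -3.30 in WT cortex, without overlap. Its change of 0.87 (SE 0.23) missed the threshold at an adjusted p of 0.0596 over all 30867 probes, of which 11.6% were called. Over the 9 fibrillar genes tested the median change was -0.18 (0.0065 without WT replicate 3, -0.06 without WT replicate 2 and -0.11 without C3aR-/- replicate 1), 4 were positive and 5 negative, and at an unadjusted p under 0.05 Col5a2 alone differed, as lower.

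Type VI collagen forms beaded filaments around cells from 3 chains. Col6a1 lay at 0.49, 0.94 and 0.11 in C3aR-/- cortex and 0.14, 0.19 and 1.02 in WT cortex (log2 change 0.06, SE 0.31). Col6a2 lay at -3.60, -3.03 and -3.82 in C3aR-/- cortex and -3.61, -3.91 and -2.94 in WT cortex (log2 change 0.01, SE 0.31). Col6a3 lay at -0.66, -0.20 and -0.85 in C3aR-/- cortex and -0.66, -0.57 and 0.37 in WT cortex (log2 change -0.28, SE 0.32). The genotypes overlapped for each chain, and the 95% interval of Col6a2, -0.74 to 0.75, shows the size of change these arrays could not resolve.

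Across arrays the chains of types I, III, V and VI moved as a group within each genotype. WT replicate 3 was the highest WT array and C3aR-/- replicate 2 the highest C3aR-/- array for 8 of the 9 tested chains of these types, Col5a2 being the exception. The same order held in 14 of 30 collagens (46.7%) and in 9.68% of all genes tested. It was thus not confined to these types. Type IV showed it in 3 of 6 genes (Col4a1, Col4a2 and Col4a6). The class of other collagens, type VI included, showed it in 6 of 15, Col18a1 among them. The order was picked out after the values were seen and is given as a description. For Col1a1, WT replicate 3 stood 0.63 above and WT replicate 2 stood 0.42 below the WT mean. C3aR-/- replicate 2 stood 0.54 above and C3aR-/- replicate 3 stood 0.48 below the C3aR-/- mean.

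Markers of fibroblasts and pericytes followed the same order in 4 of 6 tested, where 9.68% of all genes tested did. The 4 were Dcn, Lum, Pdgfra and Pdgfrb, and the order did not hold in Pi16 and Meg3. Dcn, for the fibril-binding proteoglycan decorin, lay at 2.47, 2.63 and 2.11 in C3aR-/- cortex and 2.15, 1.87 and 2.94 in WT cortex. The summed linear signal of the 7 markers was 8.18 to 10.6 in C3aR-/- cortex and 7.0 to 12.7 in WT cortex, in units of the 75th percentile signal, with Dpt not above background. Dcn, the brightest of the 7, gave most of this sum on each array. No marker of this list passed between genotypes at the adjusted threshold. At an unadjusted p under 0.05, 1 was higher, where 18.1% of all genes tested were higher. Among genes of the collagen pathway the order held in 30 of 80 tested (37.5%). By list it held in 6 of 9 for degradation and its inhibitors (among them the gelatinase gene Mmp2 and the collagen uptake receptor Mrc2), 6 of 10 for fibril-associated proteins (Dcn and Lum among them), 5 of 10 for folding and propeptide removal and 3 of 7 for receptors. It held in 2 of 6 for cross-linking, 4 of 13 for other basement membrane components, 2 of 12 for the TGF-beta pathway and 2 of 13 for hydroxylation and glycosylation. Nor was the order confined to fibroblast markers. Smooth muscle and renin markers showed it in 1 of 5. Of the endothelial markers Pecam1, Plvap and Ehd3 had it, and Kdr, Emcn, Egfl7 and Cdh5 did not. Of the macrophage markers tested Cd68 and Adgre1 had it, and Csf1r and Mrc1 did not. Itga8 of the mesangial markers had it, and Gata3 and Ptn did not. The part of fibroblast content in these values was not tested.

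**Figure D3:**
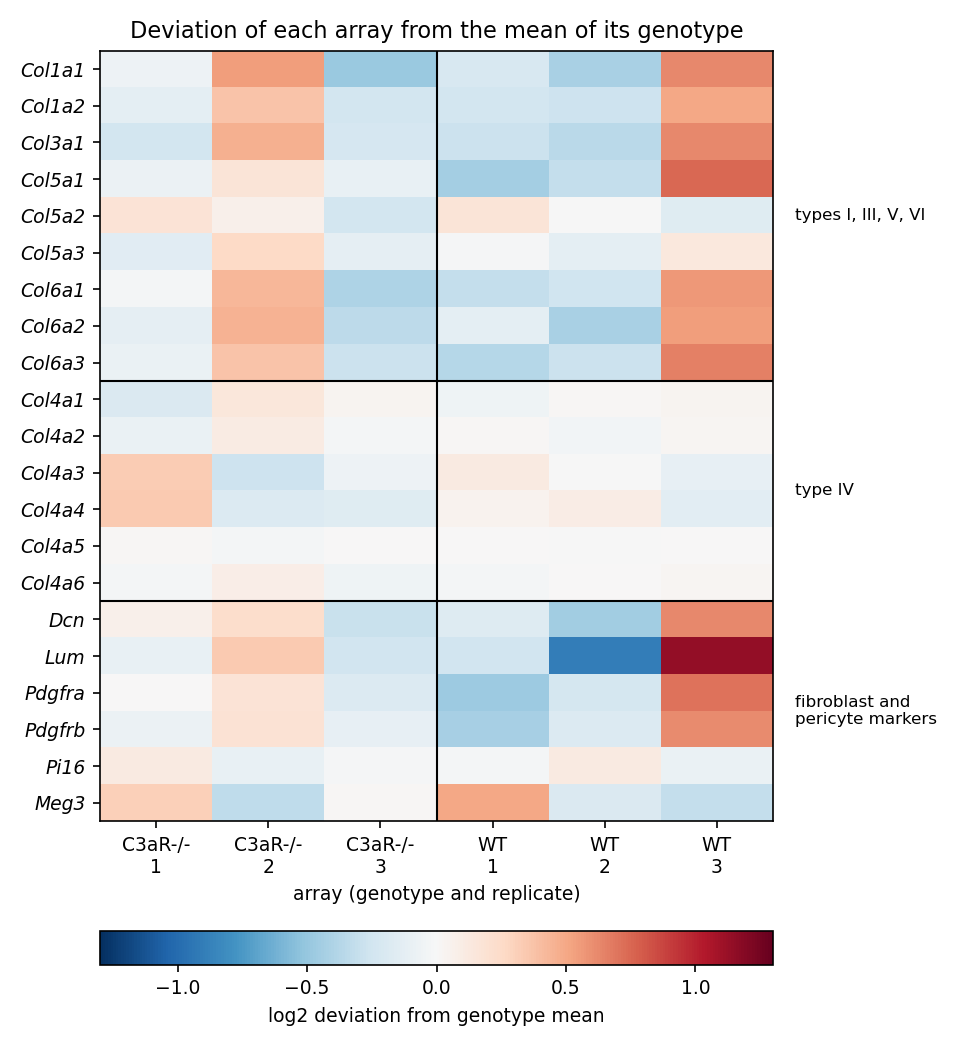
Colours give the log2 deviation of each array (columns, C3aR-/- left and WT right) from the mean of its own genotype for chains of types I, III, V and VI, of type IV, and for fibroblast and pericyte markers (rows). WT replicate 3 and C3aR-/- replicate 2 are red in most rows of the top and bottom blocks, while the type IV rows are pale, with Col4a3 and Col4a4 darkest on C3aR-/- replicate 1.

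The classes differed in precision. The median SD within a genotype was 0.46 for the chains of types I, III, V and VI, 0.42 for the tested fibrillar genes, 0.23 for the other collagens and 0.10 for type IV, against 0.12 over all genes tested. The medians hide a range within each class. Type IV ran from 0.016 for Col4a5 to 0.23 for Col4a3 and Col4a4. The fibrillar genes ran from 0.16 for Col27a1 to 0.71 for Col11a2, which lay near background. Col18a1 had an SD of 0.041 and Col1a1 of 0.53. Spots of Col1a1 on one array varied less than its arrays did. Each of its 2 probes that were spotted 10 times had an SD between spots of an array of 0.033 to 0.11.

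Of the 4 transmembrane collagens 2 were tested, and neither passed. Col13a1, a transmembrane collagen of cell junctions, lay at -1.74, -1.89 and -2.05 in C3aR-/- cortex and -2.17, -2.24 and -2.55 in WT cortex. The genotypes did not overlap, and the change of 0.42 (SE 0.13) did not pass (adjusted p = 0.082), though it did with median scaling (0.48, adjusted p = 0.0453, in a range of 0.0453 to 0.915 over 16 alternatives). A second probe gave -0.37 (SE 0.23), the opposite sign. Col17a1, the transmembrane collagen of hemidesmosomes, lay at -4.51, -4.08 and -4.49 in C3aR-/- cortex and -5.03, -4.64 and -4.74 in WT cortex, also without overlap (log2 change 0.44, SE 0.16, adjusted p = 0.113). With normexp the changes of Col13a1 and Col17a1 were 0.26 and 0.06.

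Col9a2, a cartilage FACIT chain, lay at -4.06, -4.51 and -4.33 in C3aR-/- cortex and -3.28, -4.25 and -2.88 in WT cortex. WT replicate 2 was among the C3aR-/- arrays, and the change of -0.83 (SE 0.35, adjusted p = 0.159) was -1.22 and passed without it (adjusted p = 0.0444, in a range of 0.0444 to 0.31 over 16 alternatives), and -0.49 with normexp. Col7a1, of the anchoring fibrils, lay at -1.73, -2.13 and -1.94 in C3aR-/- cortex and -2.11, -2.33 and -2.16 in WT cortex (log2 change 0.27, SE 0.12, adjusted p = 0.181). Col26a1 lay at -1.25, -1.34 and -1.52 in C3aR-/- cortex and -1.27, -1.12 and -1.21 in WT cortex (log2 change -0.17, SE 0.09). The FACIT genes Col12a1, Col14a1 and Col16a1 had changes of -0.15, 0.30 and 0.03, and their genotypes overlapped; with normexp Col14a1 gave 0.11. Over the 15 other collagens tested the median change was 0.06, with 10 positive and 5 negative.

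**Figure D4:**
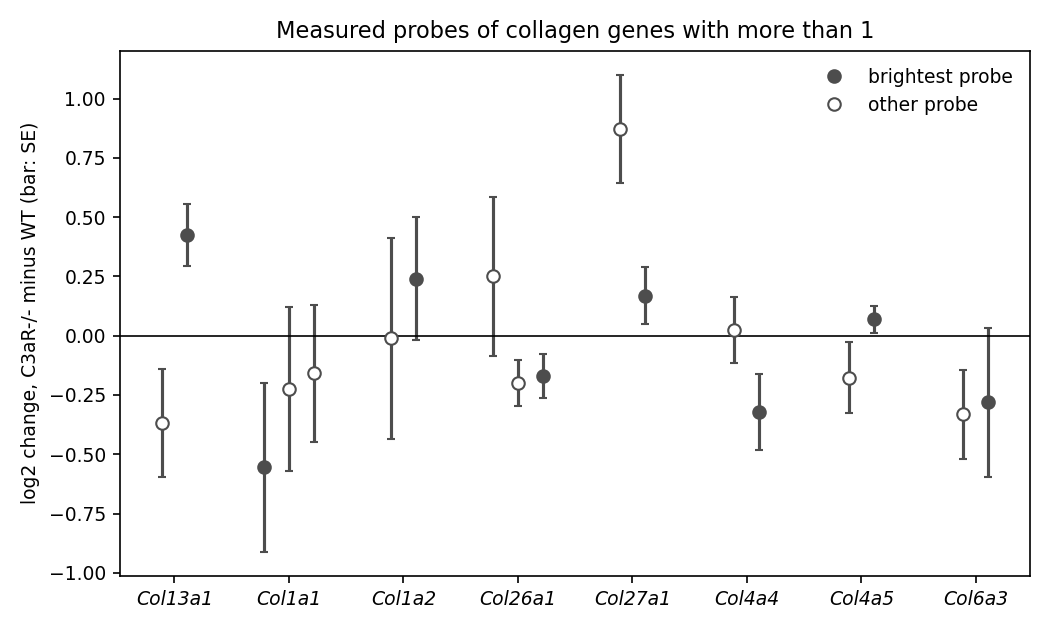
The vertical axis gives the log2 change, C3aR-/- minus WT, of every probe that passed the filter in the 8 collagen genes with more than 1 such probe; filled points are the brightest probes, open points the others, and bars the SE. Probes of Col13a1, Col4a4, Col4a5, Col26a1 and Col1a2 lie on both sides of 0, while those of Col1a1, Col27a1 and Col6a3 share a sign.

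Of 89 genes in 8 lists of the collagen pathway, 80 were tested, 6 rose and 0 fell, where 14.3% of all genes tested were called. At an unadjusted p under 0.05, 13 were higher and 6 lower, where 33.4% of all genes tested had such a p. Among cross-linking enzymes, 2 of 6 rose. Lox, the lysyl oxidase that starts the cross-links of collagen and elastin, lay at -2.28, -2.72 and -2.44 in C3aR-/- cortex and -3.40, -3.31 and -3.25 in WT cortex and rose 1.79-fold (log2 change 0.84, SE 0.12, adjusted p = 0.0148). With normexp the change of Lox was 0.43 (adjusted p = 0.0193, in a range of 0.00838 to 0.0559 over 16 alternatives). Pxdn, the peroxidasin that forms the sulfilimine bonds of type IV collagen, lay at 2.18, 2.11 and 2.15 in C3aR-/- cortex and 1.69, 1.69 and 1.89 in WT cortex and rose 1.31-fold (log2 change 0.39, SE 0.08, adjusted p = 0.0285). Both genes showed no overlap between genotypes. Lox missed the threshold without C3aR-/- replicate 3 (0.0559) or WT replicate 1 (0.0512) or 2 (0.0547), and Pxdn without any array but WT replicate 3 (adjusted p = 0.0674 to 0.0892). Loxl4 had a change of -1.05 and did not pass (adjusted p = 0.0703).

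Among other basement membrane components 2 of 13 rose, Lamb2 for the laminin β2 chain of the glomerular basement membrane (log2 change 0.39, SE 0.07, adjusted p = 0.0247) and Npnt for nephronectin (log2 change 0.51, SE 0.08, adjusted p = 0.0167). Among collagen receptors 1 of 7 rose, the integrin gene Itga10 (log2 change 0.24, SE 0.06, adjusted p = 0.0416), whose change was 0.08 with the normexp correction. In the TGF-beta pathway, a main inducer of matrix genes, 1 of 12 rose, the signal transducer Smad3 (log2 change 0.26, SE 0.05, adjusted p = 0.031). Of all genes tested, 14.3% were called, 7.05% as higher. With 1 array left out Npnt missed the threshold without C3aR-/- replicate 2 (0.053) or WT replicate 2 (0.0528). Lamb2 missed it without any array but C3aR-/- replicate 3 (0.0526 to 0.0731), and Itga10 (0.0795 to 0.113) and Smad3 (0.0586 to 0.102) missed it without any 1 of the 6 arrays. The lists for hydroxylation and glycosylation (0 of 13), folding and propeptide removal (0 of 10), degradation and its inhibitors (0 of 9) and fibril-associated proteins (0 of 10) held no gene that passed, with 4, 1, 0 and 3 genes at an unadjusted p under 0.05, a level reached by 33.4% of all genes tested. The nearest was the prolyl hydroxylase gene P3h1 at 0.34 (adjusted p = 0.0513), whose other probe gave -0.05.

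Marker lists of the cell types of the cortex were measured beside the collagens. Among all 20490 genes tested, 10782 had a positive change. Of all genes tested, 14.3% were called, 33.4% had an unadjusted p under 0.05 and 41.3% had no overlap between genotypes. Among 6 podocyte markers all had positive changes and 1 rose, the transcription factor gene Wt1 at 0.43 (adjusted p = 0.0327), whose other probe gave -0.02. Other probes of Synpo gave -0.60, 0.08 and 0.30. Their summed signal was 22.8 to 26.0 in C3aR-/- cortex and 18.1 to 21.9 in WT cortex, without overlap. Among 7 endothelial markers Pecam1 and Plvap rose by 0.51 and 0.42 (adjusted p = 0.0273 and 0.0242) and the VEGF receptor gene Kdr fell by 0.53 (adjusted p = 0.0107), with a summed signal of 47.4 to 51.9 in C3aR-/- and 49.7 to 52.3 in WT cortex. Of the smooth muscle and renin markers 0 of 5 passed, with 1 at an unadjusted p under 0.05, and their sum was 17.5 to 18.8 in C3aR-/- and 15.3 to 22.8 in WT cortex. Of 3 mesangial markers 0 passed at either threshold, with sums of 7.40 to 7.90 in C3aR-/- and 7.09 to 7.51 in WT cortex. Gata3, the brightest of the 3, gave most of this sum on each array.

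All 6 proximal tubule markers and all 6 of the loop, distal tubule and collecting duct also had positive changes, as had 10782 of the 20490 genes tested. Of all genes tested, 14.3% were called and 41.3% had no overlap between genotypes. Proximal tubule markers summed to 881 to 933 in C3aR-/- and 765 to 824 in WT cortex, with 1 of 6 called (Slc5a2, 0.34), and those of the loop, distal tubule and collecting duct to 304 to 321 in C3aR-/- and 272 to 290.1 in WT cortex, with 2 of 6 called (Aqp2, 0.88, and Aqp3, 0.40), and neither sum overlapped between genotypes. Of 4 macrophage markers tested 1 fell (Cd68, by 0.58), with sums of 8.49 to 9.09 in C3aR-/- and 7.75 to 12.6 in WT cortex that came mostly from Csf1r. All 4 had negative changes, as had 9708 of the 20490 genes tested. Csf1r changed by -0.15 on this probe and by -0.68 on its other measured probe, and the other probe of Cd68 gave -0.64. Of 2 parietal epithelium markers 0 passed, with sums of 3.66 to 3.74 in C3aR-/- and 4.18 to 5.04 in WT cortex that came mostly from Pax8. The 2 markers went opposite ways, Pax8 at -0.34 (adjusted p = 0.0556) and Cdh6 at 0.31 (adjusted p = 0.0643). The fat markers Adipoq, Plin1 and Cfd, the cartilage markers Acan, Matn1 and Matn3 and the urothelial markers Upk1b, Upk2 and Upk3a did not pass the filter. The fat marker Lep and the cartilage marker Comp exceeded background on all 6 arrays, with changes of -0.20 (no overlap, adjusted p = 0.238) and 0.37 (adjusted p = 0.43), and the urothelial marker Upk1a fell by 0.35. The sums were 0.14 to 0.168 in C3aR-/- and 0.176 to 0.211 in WT cortex for fat, 0.1 to 0.111 in C3aR-/- and 0.0716 to 0.134 in WT cortex for cartilage, and 0.107 to 0.118 in C3aR-/- and 0.14 to 0.148 in WT cortex for urothelium. Each of these sums came mostly from its 1 tested marker. The sums for parietal epithelium, fat and urothelium did not overlap between genotypes either, and were lower in C3aR-/- cortex. For parietal epithelium this was the direction of Pax8 and not of Cdh6. With 1 array left out, Aqp2 and Kdr kept their calls each time. Cd68 lost its call without C3aR-/- replicate 3 or any WT array (adjusted p = 0.0614 to 0.0761), Pecam1 without any array but WT replicate 3 (0.0617 to 0.0826), and Wt1, Plvap, Slc5a2, Aqp3 and Upk1a without any 1 of the 6 arrays (0.0524 to 0.105). The part of cell makeup in the collagen values was not tested.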

How the data were processed

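Cy3-labelled RNA from 6 samples was hybridised to one-colour Agilent arrays. The deposited scanner files hold, per the file headers, background-subtracted spot intensities from Agilent Feature Extraction 10.7.1.1. A deposited table of log2 values, whose columns had a median of 5.38 and equal sorted values to within 0.000903, served as an alternative. Its scale was taken as log2 from correlations of 0.995 to 0.996 with the arrays, and its centring is unstated.

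Intensities were log2-transformed and the 75th percentile of the array subtracted. Control spots and flagged spots were left out, spots of a probe were averaged, probes had to exceed background on 3 of 3 arrays of a genotype, and the brightest probe stood for a gene. That left 30867 probes and 20490 genes. Symbols came from RefSeq (GRCm38.p6, 32994 of 56605 probes matched), coordinates are mm9 from the array files, and promoters are RefSeq's. limma 3.58.1 (lmFit, eBayes, two-sided) in R 4.3.3 compared genotypes, after a check on simulated data. The number of arrays limits the precision.

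Described per array were the called collagens, types I, III, IV, V, VI, XV and XVIII, and the 5 others with the smallest p. Of each pathway list the called genes were named, and some others were named after their values were seen. The collagen classes, pathway lists and markers were chosen with earlier results of these data known. Same-numbered replicates did not deviate together (correlations 0.0382, -0.0284 and -0.0714), so the numbers were not taken as pairs.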

Additional observations from a re-analysis of the deposited data

How the results depend on the processing

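The number of called collagens was 5, and 4 to 7 with normexp, median or quantile scaling, the deposited table, the stricter filter, other choices of probe or array weights. It dropped to 0 once dim probes were let in, which enlarged the number of genes tested, and limma's adjusted p of the 5 genes was then 0.0609 to 0.09. It was 1 (Col8a1) with the replicate number as a block. It was 0 to 3 with 1 array left out, and 0 without WT replicate 1 (adjusted p = 0.0557 for Col8a1). Each of the 5 kept its sign throughout. All called genes numbered 2931, against 936 without the filter, 650 with the replicate block and 727 to 1687 with 1 array left out. Median scaling moved their split to 1820 higher and 1052 lower from 1444 and 1487. Called pathway genes numbered 6, against 2 without the filter, 10 with probes above background on all 6 arrays, 12 with the probe of smallest SD, 14 with array weights, 1 with the replicate block and 0 to 7 with 1 array left out. The median of type IV changes, 0.14, was 0.11 with normexp and 0.19 with median scaling, that of the fibrillar collagens, -0.18, was -0.245 to 0.0065 with 1 array left out, and that of the other collagens, 0.06, was -0.0683 to 0.286 with 1 array left out.

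Changes that reversed were all of genes that did not pass. With normexp Col11a2, Col16a1 and Col6a2 gave -0.0536, -0.0564 and -0.0597, the mean of probes gave -0.0543 for Col4a5, and the probe of smallest SD gave 0.0239 for Col4a4. With 1 array left out the ranges were -0.13 to 0.74 for Col11a2, -0.0549 to 0.242 for Col4a3, -0.10 to 0.21 for Col16a1, -0.15 to 0.35 for Col6a1, -0.22 to 0.28 for Col6a2, -0.49 to 0.0517 for Col3a1 and -0.468 to 0.0456 for Col6a3. The cause was not tested. Slide as a block was not run, since no slide held both genotypes. Signal near background limits Col20a1, Col11a2 and Col24a1, and normexp made the changes of Col17a1, Col4a6, Col14a1, Col13a1, Col9a2, Col5a2, Col4a1, Col24a1, Col20a1, Lox and Itga10 smaller by over 1.5 times.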
